A study of Mus musculus with 14 samples.

Results

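Major histocompatibility complex (MHC) class II molecules hold peptides of engulfed material at the cell surface for CD4+ T cells to read. The 8 genes described here are H2-Aa and H2-Ab1, the alpha and beta chains of the molecule I-A, H2-Eb1, the beta chain of the molecule I-E, Cd74, the invariant chain, H2-DMa and H2-DMb1, the chains of the peptide editor H2-DM, H2-Oa, a chain of its inhibitor H2-O, and Ciita, the coactivator that switches class II genes on. They were chosen by name, and their probes were found through the RefSeq accession that the array gives each probe. Of the 19096 genes the array names in this way, 7 of these 8 had a probe, with 11 probes among them. No probe led to H2-Eb1, which has no level here.

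In a class II cell, the alpha and beta chains assemble with Cd74, which blocks the peptide groove and steers the complex to endosomes. Proteases such as cathepsin S and legumain then cut Cd74 down, H2-DM removes its last fragment and helps peptides in, and H2-O, a protein mainly of B cells, restrains H2-DM. Dendritic cells, B cells and many macrophages make class II at rest, and interferon gamma can turn it on through Ciita in other cells, gut epithelium among them. C57BL/6 mice cannot display I-E because their H2-Ea gene is defective, so I-A is their class II molecule.

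Class II promoters carry a block of boxes named X, X2 and Y, bound by RFX, CREB family proteins and NF-Y, on which CIITA assembles. RefSeq promoter windows, each from 250 bases before to 50 after a gene's start (GRCm38.p6), were at hand for 5 of the 8 genes, with 6 windows in all because H2-DMa has a pair of starts. The windows were searched on both strands for GCAAC, a core of the X box, TGACG, a core of the X2 box, and GATTGG, the Y box core. The stretches below are shown because they place these letters in a class II chain, in both H2-O chains, in H2-DMb1 and in H2-Eb1, which the array could not measure. Capitals mark the matches, and each runs 5′ to 3′ along the gene's own strand: H2-Aa at chr17:34287855-34287917 (minus strand), H2-Eb1 at chr17:34305762-34305824 (plus), H2-Oa at chr17:34092290-34092352 (plus), H2-Ob at chr17:34238802-34238864 (plus) and H2-DMb1 at chr17:34153084-34153146 (plus).
H2-Aa: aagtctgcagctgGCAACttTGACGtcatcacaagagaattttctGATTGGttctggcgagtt
H2-Eb1: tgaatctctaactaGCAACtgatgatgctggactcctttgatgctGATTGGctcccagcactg
H2-Oa: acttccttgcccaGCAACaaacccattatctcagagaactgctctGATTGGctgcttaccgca
H2-Ob: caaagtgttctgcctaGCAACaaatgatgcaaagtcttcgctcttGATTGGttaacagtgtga
H2-DMb1: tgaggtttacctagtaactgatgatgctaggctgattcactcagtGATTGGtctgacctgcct

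GATTGG was in a window of all 5 genes, against 16.1% of 32851 windows, while GCAAC stood in 35.2% of windows and TGACG in 20.8%. In H2-Aa, H2-Eb1 and H2-Oa, GCAAC came first and GATTGG followed 27, 26 and 27 bases later on the same strand. A spacing of 15 to 35 bases in this order was found in 0.365% of windows (120), a range set after the windows had been seen. H2-Aa also held TGACG between them, an order that 9 windows (0.0274%) shared, and a match on the other strand overlapped it. H2-DMb1 had GATTGG at −62, counted from its start, with no GCAAC, and H2-DMa had GCAAC in one window and GATTGG in the other. A match describes letters, and no binding was measured here.

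**Figure D1:**
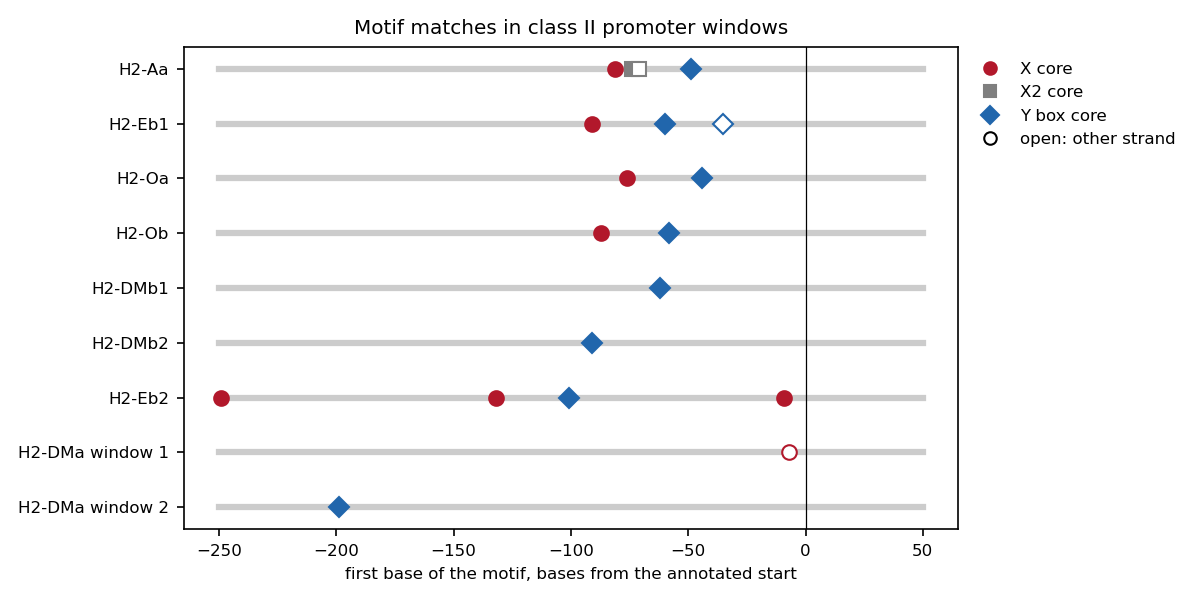
Positions of GCAAC (X core), TGACG (X2 core) and GATTGG (Y box core) relative to the gene's start (0, x axis, in bases) in the RefSeq promoter windows of class II genes (y axis), filled for the gene's strand and open for the other strand. In H2-Aa, H2-Eb1, H2-Oa and H2-Ob the X core begins between −91 and −76 and the Y box core between −60 and −44.

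Colons of 14 female C57BL/6 mice aged 4 to 6 months on a chow diet were profiled, 1 mouse per Agilent array. Flox mice carry loxP-flanked glucocorticoid receptor (GR) alleles, and GR iKO mice carry them with a Villin-cre transgene, which deletes GR in intestinal epithelium and leaves it in all other colon cells. There were 4 Flox and 4 GR iKO mice on plain water (replicates 1 to 4), and 3 Flox (replicates 1, 2 and 4) and 3 GR iKO mice (replicates 1, 3 and 4) given 2.5% dextran sodium sulfate (DSS), which injures the colon epithelium, to drink for 7 days. RNA was taken from whole colon, so a lower level can mean fewer cells of a type or less RNA per cell, and these cannot be told apart.

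A level below is the log2 processed intensity of a probe minus the array's 75th percentile, so 0 stands for that percentile. A gene stands as its brightest probe. Levels of different probes are not compared. A difference was called where its Benjamini-Hochberg adjusted p over 29520 probes in limma was under 0.05. All 11 class II probes were well above background on all 14 arrays. The 75th percentile itself was 262 to 1003 intensity units, lowest in Flox DSS replicate 4, and 62.6% to 71.3% of probes were well above background. The median SD of a probe between mice was 0.18 in Flox water, 0.17 in GR iKO water, 0.26 in Flox DSS and 0.34 in GR iKO DSS. Nr3c1, the gene of GR, had a mean level of 1.19 ± 0.14 (SD, n = 4) in Flox water, 0.39 ± 0.16 (n = 4) in GR iKO water, 1.27 ± 0.20 (n = 3) in Flox DSS and 0.43 ± 0.05 (n = 3) in GR iKO DSS. It was lower in GR iKO on every slide that held both genotypes, 4 of 4 on water and 2 of 2 on DSS. A second Nr3c1 probe fell by 0.88 on water (adjusted p = 0.0364), while the brightest one was not called (−0.80, adjusted p = 0.293). The 10 epithelial and 5 smooth muscle markers listed were well above background in every mouse.

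With DSS, 6 of the 7 measured class II genes rose in GR iKO colon, by 1.90-fold to 3.27-fold, and 1 of 7 rose in Flox colon. In GR iKO these 6 were H2-Aa, H2-Ab1, Cd74, H2-DMa, H2-DMb1 and Ciita, against 22.0% of all probes called higher and 22.5% called lower in that comparison. In Flox the one gene was H2-DMb1, against 24.4% called higher and 28.2% called lower. Groups did not overlap for the same 6 genes in GR iKO and for H2-DMb1 in Flox, where 22.6% and 25.8% of all probes lay higher without overlap. The median log2 difference over the 7 genes was 1.19 in GR iKO and 0.45 in Flox, beside 0.0001 and −0.03 over all 15537 genes tested. The contrast between genotypes is one of calls in separate comparisons, and the test of the difference itself, given further on, called none of the 7. These directions are relative to the 75th percentile. Scaled to the spike-in transcripts instead, the median of all probes moved by −2.44 in Flox and −0.98 in GR iKO, and the median of the 7 genes was −1.91 and 0.23, still above that of all probes.

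**Figure D2:**
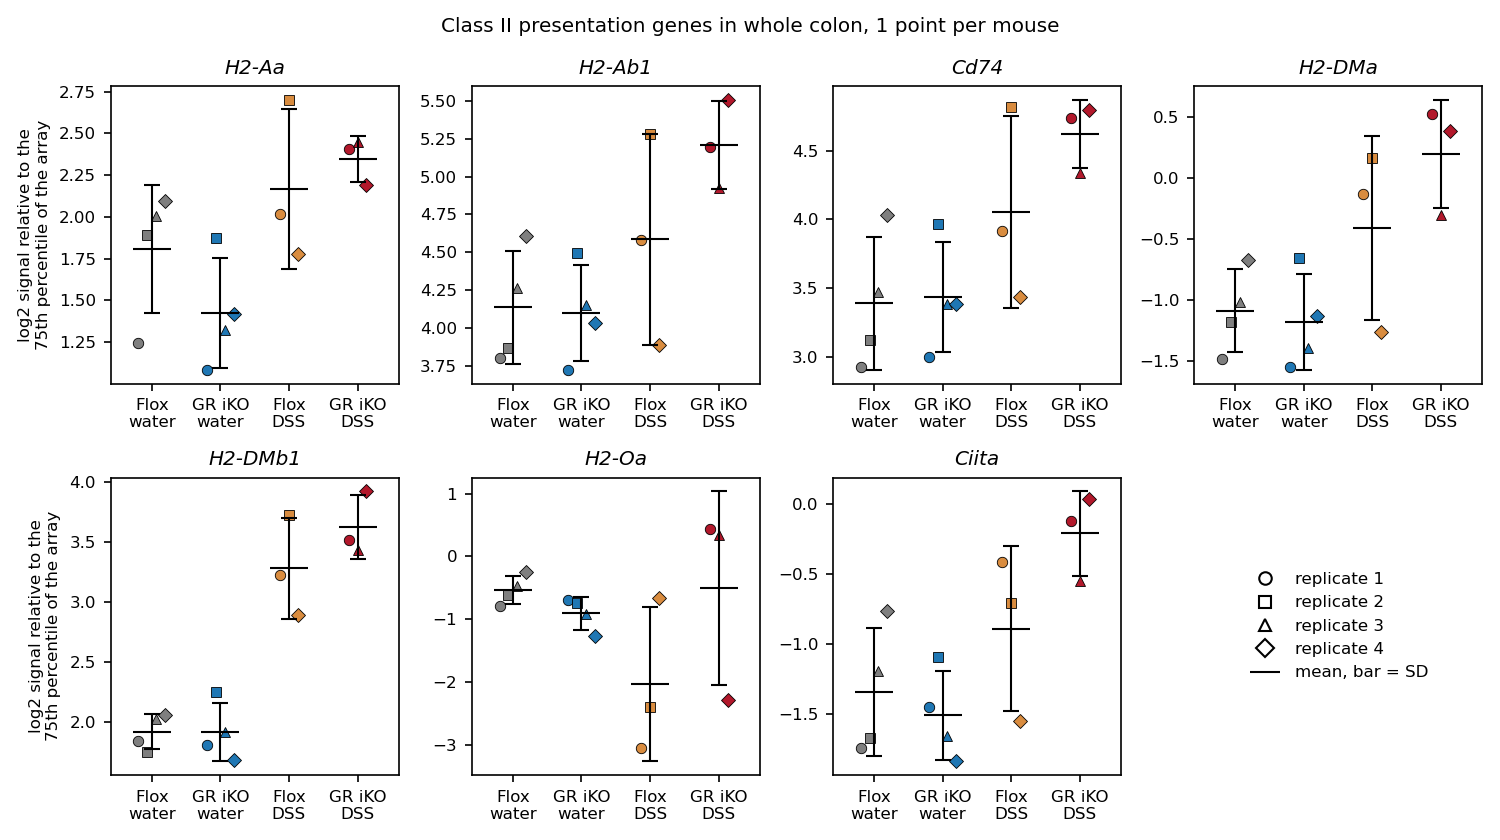
Level of each measured class II gene by its brightest probe (y axis, log2 processed intensity minus the array's 75th percentile) in the 4 groups (x axis), with 1 point per mouse and the group mean with its SD as a bar. In GR iKO on DSS, all 3 mice lie above all 4 GR iKO mice on water for 6 of the 7 genes, H2-Oa being the exception. The scale is relative to the 75th percentile, and under spike-in scaling the mean differences of H2-Aa and H2-Oa in GR iKO turn negative.

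The I-A chains came first among the members in role. H2-Ab1 was at 3.80, 3.87, 4.27 and 4.61 in Flox on water and at 3.73, 4.49, 4.16 and 4.04 in GR iKO on water, in the order of replicates. On DSS it was at 4.58, 5.28 and 3.89 in Flox and at 5.20, 4.93 and 5.51 in GR iKO. The Flox DSS mice overlapped their water controls, with replicate 4 near the lower end of them, while every GR iKO DSS mouse lay above every GR iKO water mouse. H2-Ab1 rose by 1.11 (SE 0.31, 2.15-fold, adjusted p = 0.0113) in GR iKO and differed by 0.45 (SE 0.31, adjusted p = 0.24) in Flox.

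H2-Aa was at 1.24, 1.89, 2.00 and 2.09 in Flox and at 1.08, 1.87, 1.32 and 1.42 in GR iKO on water. With DSS it was at 2.02, 2.70 and 1.78 in Flox and at 2.40, 2.45 and 2.19 in GR iKO. The Flox groups overlapped and the GR iKO groups did not. H2-Aa rose by 0.92 (SE 0.26, adjusted p = 0.0117) in GR iKO, and its difference in Flox was 0.36 (SE 0.26, adjusted p = 0.261). Its second probe also rose in GR iKO (0.96, adjusted p = 0.0085). Of the other H2-Ab1 probes, one rose (1.01, adjusted p = 0.026) and the dimmer one missed the threshold (0.81, adjusted p = 0.0676). The first of these is printed on 10 spots of each array, and the SD over its spots was 0.0337 to 0.123 on the log2 scale, below that probe's SD between mice in each group (0.22 to 0.71).

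Cd74, the invariant chain, had levels of 2.93, 3.12, 3.47 and 4.03 in Flox water mice and 3.00, 3.97, 3.39 and 3.39 in GR iKO water mice. Its DSS levels were 3.91, 4.81 and 3.44 in Flox and 4.74, 4.33 and 4.79 in GR iKO. Flox DSS replicate 4 sat inside the water range again. Cd74 rose by 1.19 (SE 0.34, 2.28-fold, adjusted p = 0.013) in GR iKO, and its difference in Flox was 0.66 (SE 0.34, adjusted p = 0.118).

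H2-DMb1, the beta chain of the peptide editor, was the member called in both genotypes. Its levels on water were 1.84, 1.76, 2.03 and 2.06 in Flox and 1.81, 2.25, 1.92 and 1.69 in GR iKO. On DSS they were 3.22, 3.72 and 2.89 in Flox and 3.52, 3.43 and 3.93 in GR iKO. All 6 DSS mice lay above all 8 water mice. H2-DMb1 rose 2.57-fold in Flox (log2 difference 1.36, SE 0.20, adjusted p = 0.000155) and 3.27-fold in GR iKO (1.71, SE 0.20, adjusted p = 4.76e-05). Its dimmer second probe rose in GR iKO (1.37, adjusted p = 0.000329), and in Flox its difference was 0.36 (SE 0.21, adjusted p = 0.181), so the call in Flox rests on the brighter probe. H2-DMb2 is a near-identical copy of this gene, and signal shared between their probes was not tested.

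H2-DMa, its partner chain, was at −1.48, −1.18, −1.01 and −0.67 in Flox and at −1.55, −0.66, −1.40 and −1.13 in GR iKO on water. On DSS it was at −0.13, 0.17 and −1.26 in Flox and at 0.52, −0.30 and 0.39 in GR iKO. In Flox, replicates 1 and 2 lay above the water mice and replicate 4 among them. H2-DMa rose by 1.38 (SE 0.34, 2.61-fold, adjusted p = 0.00592) in GR iKO, and the Flox difference was 0.68 (SE 0.34, adjusted p = 0.115).

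Ciita, the coactivator, also had Flox DSS replicate 4 lowest of the DSS mice. On water it was at −1.74, −1.67, −1.19 and −0.76 in Flox and at −1.45, −1.09, −1.65 and −1.84 in GR iKO. On DSS it was at −0.41, −0.71 and −1.55 in Flox and at −0.12, −0.55 and 0.03 in GR iKO. Ciita rose by 1.30 (SE 0.30, 2.46-fold, adjusted p = 0.00429) in GR iKO, with no overlap, and its Flox difference was 0.45 (SE 0.30, adjusted p = 0.231).

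H2-Oa stood apart from the other 6. On water it was at −0.79, −0.61, −0.47 and −0.25 in Flox and at −0.69, −0.74, −0.91 and −1.27 in GR iKO. On DSS the mice of 1 group lay far from each other, at −3.05, −2.39 and −0.67 in Flox and at 0.44, 0.33 and −2.29 in GR iKO. Neither difference was called, at −1.50 (SE 0.63, adjusted p = 0.061) in Flox and 0.40 (SE 0.63, adjusted p = 0.636) in GR iKO. Its SD was 1.23 in Flox DSS and 1.55 in GR iKO DSS, against 0.23 and 0.26 on water.

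For 5 genes, H2-Aa, H2-Ab1, H2-DMa, H2-DMb1 and Ciita, the group means had the same order, GR iKO water lowest, then Flox water, Flox DSS and GR iKO DSS. The neighbours GR iKO water and Flox water did not differ beyond their spread, nor did Flox DSS and GR iKO DSS, and of the middle step H2-DMb1 alone passed the test. Cd74 had Flox water lowest (3.39 ± 0.48, n = 4) next to GR iKO water (3.43 ± 0.40, n = 4). H2-Oa had Flox DSS lowest (−2.04 ± 1.23, n = 3).

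Mice of several groups were hybridised on each of 4 slides. The 6 genes called in GR iKO had no overlap between groups, so their differences within a slide could only be positive, and these ranged from 0.77 (H2-Ab1 and H2-Aa) to 2.24 (H2-DMb1) over 3 slides. In Flox the H2-DMb1 groups did not overlap either, so its differences within 3 slides could also only be positive (0.84 to 1.97). H2-Aa, H2-Ab1, H2-DMa, Cd74 and Ciita were positive on 2 of 3 slides, the negative slide being that of Flox DSS replicate 4. Without this mouse, 5 of 7 genes were called higher in Flox and H2-Oa lower, with log2 differences of 0.80 for H2-Ab1, 0.97 for Cd74, 1.10 for H2-DMa, 0.78 for Ciita and −2.19 for H2-Oa. Without Flox water replicate 4, 2 genes were called higher in Flox, and without GR iKO DSS replicate 4, 1 higher and 1 lower. In GR iKO 6 genes were called whichever array was left out.

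**Figure D3:**
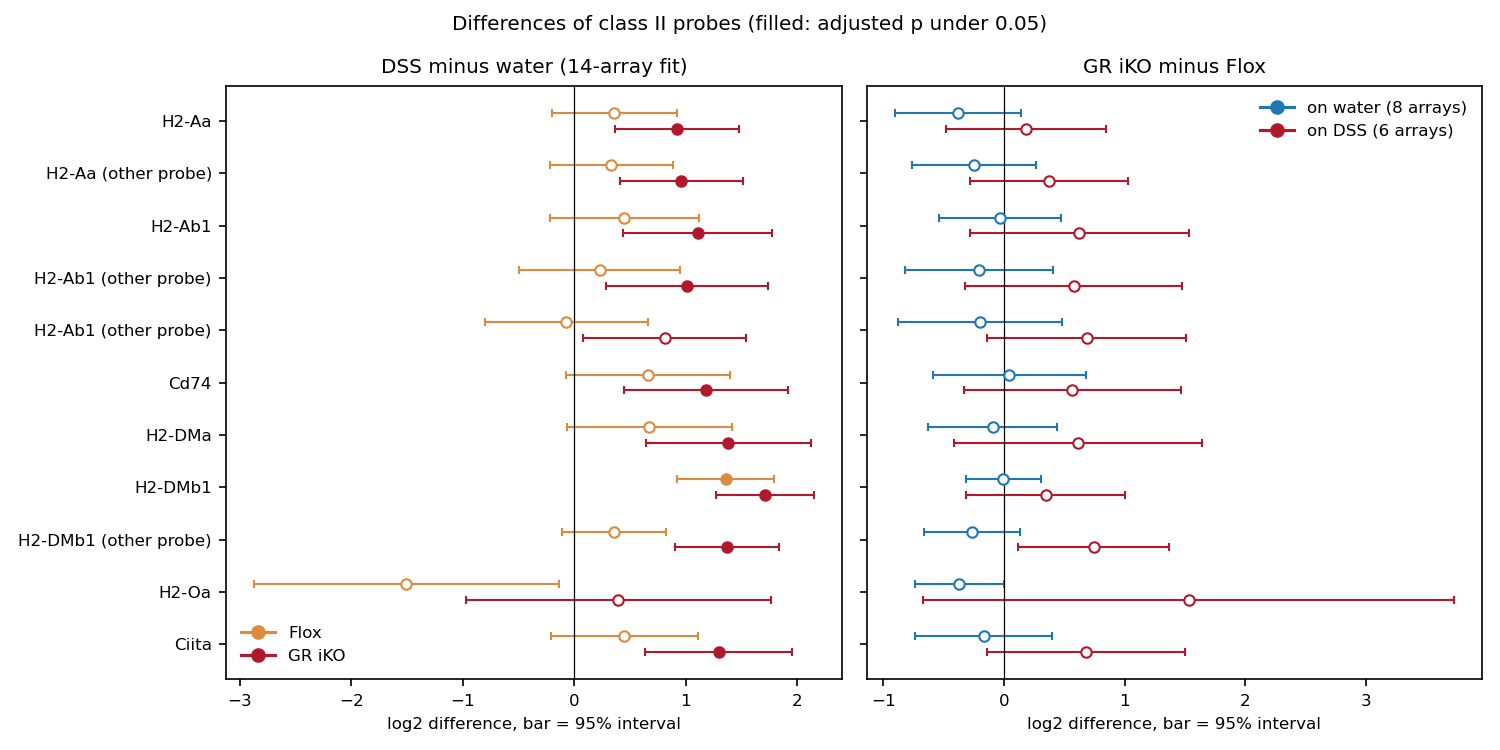
Log2 differences of the 11 class II probes (y axis) with 95% intervals, on the left DSS minus water in Flox and GR iKO and on the right GR iKO minus Flox on water and on DSS, filled where the adjusted p was under 0.05. On the left 9 of 11 GR iKO points and 1 of 11 Flox points are filled, on the right none. The scale is relative to the 75th percentile, and under spike-in scaling the Flox points of the brightest probes are all negative.

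Epithelial GR deletion on its own was compared in the mice on water. None of the 7 genes was called by limma (adjusted p = 1 for each), where 0.0102% of probes (3) passed, and 1 of the 7 had an unadjusted p under 0.05, a level that 3.04% of all probes reached. That gene was H2-Oa, with a log2 difference of −0.37 (95% interval −0.74 to −0.0036, unadjusted p = 0.0483) that was negative on 4 of 4 slides. The intervals of GR iKO minus Flox were −0.91 to 0.14 for H2-Aa, −0.54 to 0.47 for H2-Ab1 and −0.32 to 0.31 for H2-DMb1. Those of H2-DMa (−0.63 to 0.44), Cd74 (−0.59 to 0.68) and Ciita (−0.74 to 0.40) also spanned 0.

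Between the genotypes on DSS, all 7 genes had higher means in GR iKO, by a median of 0.61, and none was called, as no probe of the array was in this fit of 6 arrays (0%). With all 14 arrays and 1 shared spread, 13.2% of probes were called, and still none of the 7 genes. None of the 7 had an unadjusted p under 0.05, a level that 16.2% of probes reached. The log2 differences were 0.18 for H2-Aa (95% interval −0.48 to 0.84), 0.62 for H2-Ab1 (−0.29 to 1.53), 0.57 for Cd74 (−0.33 to 1.46) and 0.68 for Ciita (−0.14 to 1.50). They were 0.61 for H2-DMa (−0.42 to 1.64), 0.34 for H2-DMb1 (−0.32 to 1.01) and 1.53 for H2-Oa (−0.67 to 3.73). The upper end of 6 of these 7 intervals lies above a 2-fold difference, so 3 mice against 3 leave such differences undecided. On the 2 slides with both genotypes, H2-Aa, H2-Ab1, H2-DMb1 and Cd74 were higher in GR iKO on both, and H2-DMa, Ciita and H2-Oa on 1 of 2. The second H2-DMb1 probe had the clearest separation, with −0.05, 0.21 and −0.63 in Flox and 0.76, 0.49 and 0.52 in GR iKO. Its groups did not overlap, as was true in that direction of 11.2% of probes, and its difference of 0.74 had an unadjusted p of 0.0268 and an adjusted p of 0.256.

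The genotype by DSS interaction asks whether the DSS response itself differed. It was positive for all 7 genes, from 0.35 for H2-DMb1 to 1.90 for H2-Oa with a median of 0.66, and called for none, against 0.112% of probes. None of the brightest probes had an unadjusted p under 0.05, which 19.2% of all probes had. Ciita had 0.85 (adjusted p = 0.309) and H2-Oa 1.90 (adjusted p = 0.267), and the second H2-DMb1 probe had 1.01 (unadjusted p = 0.0057, adjusted p = 0.111). These comparisons share their water and DSS mice, so their signs are not independent of each other.

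The partner chain of H2-Oa and the copy of H2-DMb1 were spread on DSS in the way H2-Oa was. H2-Ob, the other H2-O chain, was between −3.16 and −2.13 in the 8 water mice. On DSS it was at −6.66, −5.56 and −3.23 in Flox and at −1.85, −1.94 and −5.07 in GR iKO. H2-Ob was called lower in Flox (adjusted p = 0.0137), where 1 of 3 DSS mice was well above background, so the size of its fall is not given. Its difference in GR iKO was −0.20 (adjusted p = 0.864). H2-DMb2, the copy of H2-DMb1, was at −7.50, −6.06 and −4.10 in Flox DSS mice and at −2.61, −2.77 and −6.60 in GR iKO DSS mice, against −3.98 to −2.57 on water. H2-DMb2 was called lower in Flox (adjusted p = 0.0176), with 1 of 3 DSS mice well above background, so its size is not given either. In GR iKO it had −0.33 (adjusted p = 0.788), with 2 of 3 DSS mice well above background. Of all probes, 28.2% were called lower in Flox. H2-Eb2 had 2 probes below the detection filter, and no probe led to H2-Ea.

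Markers of B cells moved with these genes mouse by mouse. The mean of 8 B cell genes, relative to the water mice, was −3.65, −2.93 and −0.35 in Flox DSS replicates 1, 2 and 4 and 0.53, 0.79 and −3.23 in GR iKO DSS replicates 1, 3 and 4, against −0.51 to 0.65 in the water mice. The mice low in H2-Oa, H2-Ob and H2-DMb2 on DSS were the same 3 that were low in these markers. In Flox 7 of the 8 genes fell, with a list median of −2.44 (−2.42 with Blk at its bound), for example Ms4a1, which codes for CD20 (−3.14) and was detected in every mouse. Of all probes, 28.2% were called lower in Flox. Fcer2a and Cr2 were among the 7 and were well above background in 1 of 3 Flox DSS mice, so the size of their fall is not given. In GR iKO 0 of 8 were called by limma, and 0 had an unadjusted p under 0.05, as was so for the interaction. Pax5 was not well above background on any array and was not tested. Between 3 and 7 of the 8 genes were well above background in the Flox DSS mice, 5 in GR iKO DSS replicate 4 and 8 in the other GR iKO DSS mice. Ms4a1 was at −3.56, −2.75 and 0.72 in Flox DSS and at 1.64, 1.72 and −3.13 in GR iKO DSS. GR iKO DSS replicate 4, low in B cell markers, had the highest H2-Ab1 (5.51), Cd74 (4.79) and Ciita (0.03) of its group and the lowest H2-Aa (2.19). Whether B cell content had a part in the H2-O result was not tested.

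**Figure D4:**
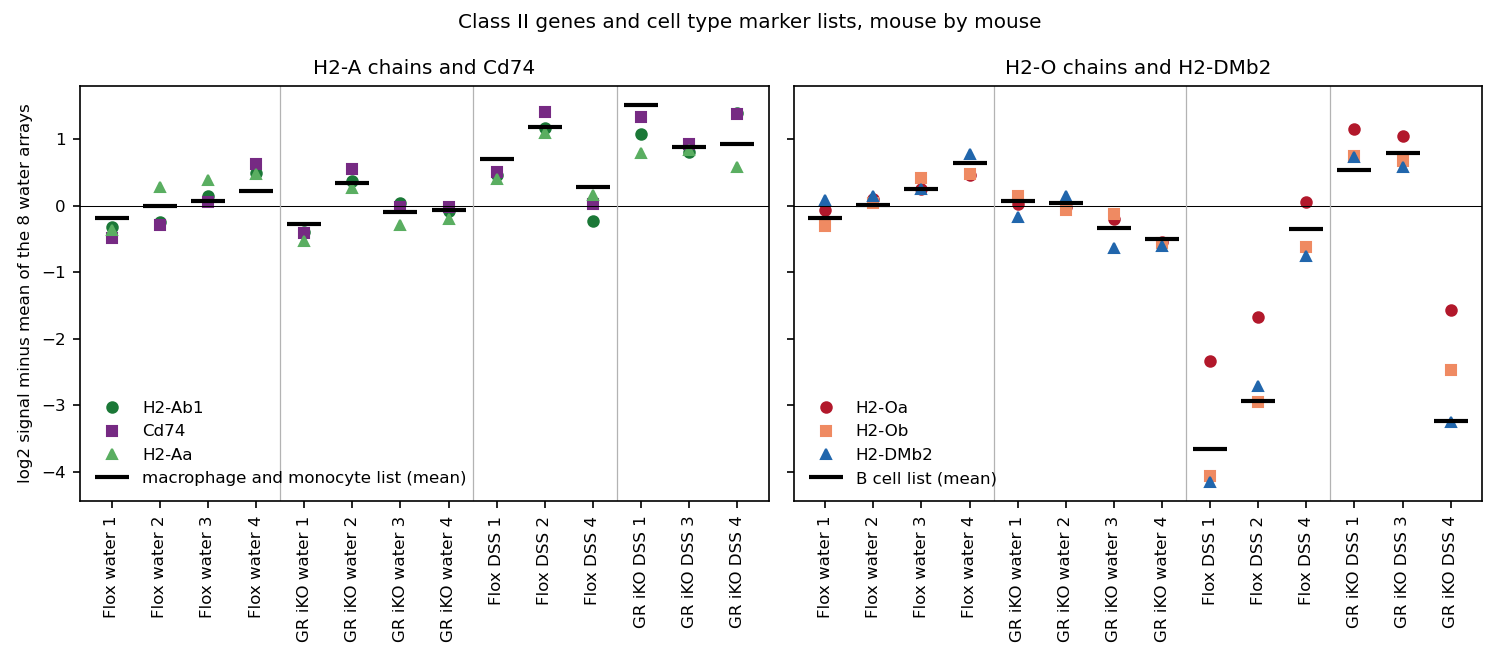
Log2 level relative to the mean of the 8 water mice (y axis) in each of the 14 mice (x axis, by group and replicate), on the left H2-Ab1, Cd74 and H2-Aa with the mean of the macrophage and monocyte list as a black bar, on the right H2-Oa, H2-Ob and H2-DMb2 with the mean of the B cell list as a black bar. The B cell list lies at −3.65, −2.93 and −3.23 in Flox DSS replicates 1 and 2 and GR iKO DSS replicate 4, where H2-Oa, H2-Ob and H2-DMb2 are low too. Values are relative to the 75th percentile, and under spike-in scaling the median of all probes is lower on DSS in both genotypes.

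Among the genes that process antigen and turn class II over in endosomes, 6 of 12 rose and 3 fell in Flox, and 7 rose and 1 fell in GR iKO, with medians of 0.35 and 0.39. Of all probes, 24.4% were called higher and 28.2% lower in Flox, and 22.0% and 22.5% in GR iKO. These shares stand beside the counts of every list. Lgmn, the endosomal protease legumain, rose by 1.63 and 2.00 in Flox and GR iKO. Marchf1, the ubiquitin ligase that removes class II from the surface, rose by 1.10 and 2.24, and Sppl2a, which cleaves the last membrane-bound piece of Cd74, by 0.80 and 1.19. The dimmer Sppl2a probes also had higher means on DSS, by less. The next brightest went from 0.59 to 0.89 in Flox and from 0.82 to 1.40 in GR iKO. Ifi30, a thiol reductase of endosomes, fell by 1.09 in Flox and by 0.44 in GR iKO. The difference between the responses was called by limma for none of the 12. An unadjusted p under 0.05 was found for 5, against 19.2% of all probes.

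Upstream of the class II promoters, 8 of 17 genes of the class II transcription machinery and interferon gamma signalling rose and 3 fell in Flox, and 10 rose and 2 fell in GR iKO (medians 0.17 and 0.51, the same with undetected groups at their bound). The genes that rose were led by the interferon side. Ifng, the cytokine itself, was at 1.29, −1.12 and −2.24 in Flox and at 1.51, 0.37 and 2.87 in GR iKO on DSS, against −7.48 to −5.27 in the water mice. It was well above background in every DSS mouse, in none of the Flox water mice and in 1 of 4 GR iKO water mice, so in Flox it was at least 38.1-fold higher with DSS (adjusted p = 5.1e-05), a bound set against the dimmest detected signal of each array. In GR iKO the fitted difference was 7.73 (adjusted p = 1.48e-05), a size set mostly against undetected signal and not to be read against the Flox bound. Socs1, the feedback inhibitor of this pathway, rose by 2.91 and 3.76 in Flox and GR iKO. Spi1, a myeloid transcription factor, was not well above background in any water mouse and was at least 2.24-fold higher in Flox (2 of 3 DSS mice above background, adjusted p = 0.0479) and at least 2.25-fold higher in GR iKO (3 of 3, adjusted p = 0.0445). Of the factors that bind the boxes shown above, Rfxank fell by 1.00 in Flox and 1.19 in GR iKO and Nfyc by 1.25 and 0.60, while Nfyb rose by 0.58 and 0.68. No gene of this list was called by limma for genotype or for the interaction. An unadjusted p under 0.05 was found for 0 of 17 on water, 3 on DSS and 4 in the interaction. Of all probes, 3.04%, 16.2% and 19.2% reached that level in these comparisons.

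Genes that act beside class II at the T cell contact were higher more often than lower, 4 of 8 rising and 1 falling in Flox and 5 rising in GR iKO (medians 0.48 and 1.56). Of all probes, 24.4% were called higher in Flox and 22.0% in GR iKO. Cd274, the inhibitory ligand PD-L1, rose by 2.13 in Flox and 3.61 in GR iKO. Cd80, a co-stimulatory ligand, was not well above background in any water mouse and was at least 3.39-fold and 4.62-fold higher with DSS in Flox and GR iKO. Cd40, the receptor through which helper T cells license antigen-presenting cells, rose by 0.89 in Flox and 2.51 in GR iKO. Cd86, the other ligand of CD28, rose by 1.54 in GR iKO, and its difference in Flox was 0.23 (adjusted p = 0.483). Its dimmer second probe had mean levels of −4.83 on water and −3.43 on DSS in Flox, without overlap. In GR iKO that probe had −4.89 on water and −2.42 on DSS. The Flox result of Cd86 thus depends on the probe.

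The MHC class I pathway gave a yardstick in the same mice. Of its 9 tested genes, 8 rose in Flox and 9 in GR iKO, with medians of 1.29 and 1.81, against 24.4% and 22.0% of all probes called higher. Tap1, a peptide transporter, rose by 1.71 and 2.60, and Psmb8, an immunoproteasome subunit, by 1.40 and 2.07. Nlrc5, which does for class I what Ciita does for class II, rose by 2.72 in GR iKO, where 2 of 4 water mice were well above background, and was at least 4.61-fold higher in Flox, where 0 of 4 water mice and 2 of 3 DSS mice were well above background. H2-K1, a class I heavy chain, rose by 0.47 in GR iKO, and its difference in Flox was 0.07 (adjusted p = 0.676). On its dimmer probes the Flox mean was lower on DSS than on water (4.37 to 4.21 and 3.88 to 3.42). The GR iKO mean of these probes was higher on DSS (4.42 to 4.71 and 3.81 to 4.06). The difference between the class I and class II genes was not tested.

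Marker lists of the cells that carry class II, and of others in whole colon, differed between the DSS mice as well. Beside their counts, 24.4% of all probes were called higher and 28.2% lower in Flox, and 22.0% and 22.5% in GR iKO. Of 10 macrophage and monocyte genes, 5 rose and 1 fell in Flox and 7 rose and 1 fell in GR iKO, among them Ccr2, the monocyte homing receptor (2.35 and 2.58), Itgam, an integrin of myeloid cells (2.11 and 2.65), and Cd68, a lysosomal glycoprotein (1.44 and 2.16). The gene that fell was Mertk, a receptor of resident macrophages for dying cells (−1.28 and −0.96), and Cx3cr1, the fractalkine receptor, had −0.95 (adjusted p = 0.0684) and −1.07 (adjusted p = 0.0505). The mean of this list relative to water was 0.70, 1.18 and 0.28 in Flox DSS replicates 1, 2 and 4 and 1.51, 0.88 and 0.93 in the GR iKO DSS replicates 1, 3 and 4. Flox DSS replicate 4, the lowest of its group in every measured class II member except H2-Oa, was lowest here too. This was not particular to macrophage genes. The same mouse was lowest of its group in the class I (0.55), interferon gamma (0.36), T cell contact (0.42) and neutrophil (3.86) lists. It was highest in the dendritic cell (0.04) and smooth muscle (1.73) lists. Of 8 dendritic cell genes, none rose and 1 fell in Flox, while 3 rose and 1 fell in GR iKO. Ccr7, which guides mature dendritic cells to lymph nodes, rose by 2.38 in GR iKO. There Itgax, which codes for CD11c, rose by 1.28 and Batf3, a factor of cross-presenting dendritic cells, by 1.00. Over the 8 genes the median difference in GR iKO was 0.42, with 5 of 8 positive. Xcr1 had a lower mean on DSS than on water in GR iKO (−3.84 and −3.60) and was not called. So had Clec9a (−6.20 and −5.75), which was near background and not called. Itgae, an integrin of mucosal dendritic cells and T cells, fell by 1.56 in Flox and by 1.01 in GR iKO. The part of these cells in the class II result was not tested.

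The other marker lists were as follows, by called genes, beside the same shares of all probes. In neutrophils 5 of 6 rose in Flox and 6 of 6 in GR iKO, in plasma cells 4 of 5 fell in Flox and 3 of 5 in GR iKO with 1 rising in each, and in T cells 1 of 6 fell in each. In endothelium 1 of 4 rose in each. Of the 10 epithelial genes, 4 fell and 1 rose in Flox and 1 rose in GR iKO, and their mean relative to water was between −0.74 and −0.04 in Flox DSS mice and between −0.20 and 0.31 in GR iKO DSS mice. All 5 smooth muscle genes rose in Flox and none was called in GR iKO by limma (0 with an unadjusted p under 0.05), with list means of 0.98 to 1.73 and −0.70 to 0.61. Between the genotypes on DSS, none of the epithelial and muscle genes was called by limma. An unadjusted p under 0.05 was found for 3 of 10 epithelial and 5 of 5 muscle genes, against 16.2% of all probes. The part of these tissues in the class II values was not tested.

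The genes whose levels varied most like the class II chains were found by correlating every tested gene with the mean of H2-Aa, H2-Ab1 and Cd74, after centring within each genotype. The members were then left out of the lists below. Cd74 and H2-Ab1, which are part of that mean, ranked 1 and 7 on water, and Cd74 ranked 3 on DSS. Over the 8 water mice, the 10 closest were Igsf6 (r = 0.985), Itgb2 (0.982), Kctd12b (0.982), Nrros (0.979), Ccnk (0.979), Mpeg1 (0.975), Crispld2 (0.972), Syne1 (0.969), Batf3 (0.967) and Fes (0.966), of 15537. Igsf6, Itgb2, Nrros, Mpeg1 and Fes are known to be used by myeloid cells, and Batf3 by dendritic cells. Over the 6 DSS mice the closest were Hps1 (0.992), 6330549D23Rik (0.992), Tmem86b (0.988), Cep250 (0.983), Zc2hc1c (0.981), Dhodh (0.981), Tmem38a (0.981), Pigh (0.975), Zfp157 (0.974) and Sytl3 (0.974). With the members left out, no gene is on both lists. With so few mice and so many genes, high values arise readily, and the mice share the slides and the depth of their arrays, so these are descriptions. H2-Oa had r = 0.50 with that mean on water and −0.47 on DSS.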

How the data were processed

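Total RNA from mouse colon (500 ng, Cy3) was hybridised to 1-colour Agilent whole mouse genome arrays. Per the labels, the submitters used Agilent Feature Extraction and Partek 6.6, and the file headers give Feature Extraction 12.0.0.7. The deposited scanner files hold intensity values, of which the authors' processed signal (background-subtracted by the software) was used, with 45018 spots per array. The deposited value table holds log2 values that the authors derived from the same arrays (lowest correlation with the log2 processed intensity 0.999). Its scaling is not given in the sources used here, and it served as an alternative.

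The 1639 control spots and spots with outlier flags were left out, spots of a probe were averaged, and log2 processed intensity minus the array's 75th percentile was analysed. The 29520 probes well above background on 3 or more of 14 arrays were tested with limma 3.58.1 in R 4.3.3, two-sided, with Benjamini-Hochberg adjustment and 95% intervals from the moderated fit. The DSS responses and the interaction came from all 14 arrays with 4 group means, the genotype comparison on water from the 8 water arrays and that on DSS from the 6 DSS arrays. Accessions were matched to RefSeq genes (GRCm38.p6). The array's own grid is on another build (mm9), so no probe coordinates are given, and the promoter coordinates above are those of GRCm38.p6. A gene is its brightest tested probe. Named were all members, up to 4 called genes of each pathway list by size of change, genes called for genotype or interaction, the 10 genes most alike and Nr3c1. Examples from the marker lists, Rfxank, Nfyb, Nfyc and H2-K1 were chosen after their values were seen. Where every array of a group was not well above background, the fold is a lower bound.

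On simulated data with equal spread the fit kept false calls near the set rate. With the larger spread measured on DSS the 14-array fit called too many unchanged probes, and separate weights for water and DSS lowered that number. The simulated probes varied independently of each other, which probes of real arrays need not do. The simulation therefore does not give the rate of false calls in these data. The alternatives were other background correction, scaling, filters, blocks, weights, eBayes options, probe choices, sets of arrays and each array left out. The planned normexp correction was run on the median signal, since the files hold no mean signal. The number of arrays limits the precision. The members and lists were chosen with earlier results of these data known. Each array is 1 mouse, and litters, cages and extraction days are not given in the labels. The values of some genes counted in the lists are not reported here.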

Additional observations from a re-analysis of the deposited data

Results flagged for a closer look

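Cd40, the receptor of antigen-presenting cells for helper T cell signals, was the one gene of the pathway lists called by the interaction test between the DSS responses of the genotypes. Most of the 26 alternatives lost this call. On water it averaged −2.91 ± 0.18 (SD, n = 4) for Flox mice and −3.13 ± 0.24 (n = 4) for GR iKO mice. On DSS it was at −1.73, −2.25 and −2.09 in Flox and at −0.35, −0.90 and −0.62 in GR iKO. These groups did not overlap, as was true in that direction of 11.2% of probes. The response in GR iKO exceeded that in Flox by 1.62 on the log2 scale (SE 0.26, limma adjusted p = 0.044). Of all probes, 0.112% (33) were called in this test. Over 26 alternatives the difference was 1.16 to 3.02, the adjusted p was 0.00639 to 0.126 and 11 called it. The call was lost with slide as a block (adjusted p = 0.126), with the replicate block (0.114) and with separate weights for the larger spread on DSS (0.115). The genotype difference on DSS alone was 1.40 (adjusted p = 0.226).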

How the results depend on the processing

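Of 7 measured class II genes, the count called with DSS in GR iKO was 6 and stayed at 5 or 6 under every alternative but spike-in scaling, under which it was 0. In Flox the count of 1 became 7, all lower, under spike-in scaling and 5 with array quality weights (4 higher, 1 lower). It was 2 with separate weights for water and DSS and 2 with only the 2 groups in the fit. In both of these settings H2-DMb1 was called higher and H2-Oa lower. With each array left out, the count in Flox was 1 to 6. On DSS the genotype count went from 0 to 5 and for the interaction from 0 to 7, all higher, under spike-in scaling, where 17.0% and 63.4% of all probes were called (4960 of 5023 and 18704 of 18712 higher). The spike-in signal moved the median of all probes by −0.18 between genotypes on water, 1.25 on DSS and 1.43 for the interaction, and the cause was not tested. Spike-in scaling also turned the sign in Flox of H2-Aa (−1.998), H2-Ab1 (−1.91), H2-DMa (−1.68), H2-DMb1 (−0.998), Cd74 (−1.69) and Ciita (−1.91), in GR iKO of H2-Aa (−0.033) and H2-Oa (−0.56), and on water of Cd74 (−0.13). Array quality weights turned H2-Oa in GR iKO (−0.25). With each array left out, values that crossed 0 ranged from −0.0745 to 1.29 for H2-Oa with DSS in GR iKO, from −0.0136 to 0.45 for H2-Aa between genotypes on DSS, and on water from −0.17 to 0.12 for H2-Ab1, −0.27 to 0.0431 for H2-DMa, −0.12 to 0.0689 for H2-DMb1, −0.13 to 0.26 for Cd74 and −0.30 to 0.0253 for Ciita.

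Of all probes, 7203 were called higher and 8338 lower in Flox, against 313 and 26116 with spike-in scaling and 10725 and 5767 with normexp correction. In GR iKO 6490 and 6651 became 1118 and 15851 with spike-in scaling and 6865 and 4828 with normexp, which moved the median of all probes to 0.22 in Flox, 0.13 in GR iKO, −0.14 between genotypes on DSS and −0.11 for the interaction. The interaction was called for 33 probes, and for 0 with slide as a block, with separate weights for water and DSS and with no filter on dim probes. It was called for 18 probes with the mean over a gene's probes, 122 with the stricter filter, 142 with the deposited table, 172 with quantile normalisation, 232 with the eBayes options, 2063 with array quality weights, and 0 to 2219 when each array was left out (2219 without Flox DSS replicate 4, 2057 without GR iKO DSS replicate 3). The genotype comparison on DSS was called for 0 probes with the 6 arrays and 3903 (13.2%) with all 14 arrays and 1 shared spread, none of them a class II gene's brightest probe. On water the 3 calls were 0 to 4 under the alternatives. The replicate numbers were not treated as pairing the mice. Among mice of the same number, 7 of 12 pairs of deviations correlated above 0.1 (range −0.080 to 0.310). Mice of unlike numbers were not correlated for comparison, so this cannot decide whether the numbers pair mice. With the replicate block the class II counts were 1, 6, 0, 0 and 0 in the order of the comparisons, and 15239, 12609, 1, 0 and 1 probes were called in all.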
